A study of Caenorhabditis elegans with 12 samples.

Results

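The P-glycoprotein genes pgp-1 to pgp-9 of Caenorhabditis elegans were followed in whole larvae of 3 genotypes. These 9 of the 46778 genes in the deposited count table were picked by symbol: pgp-6 because it was low in both mutants, and the others as its relatives. The values of the mutants against wild type therefore chose the genes and are given below as a description. Calls of the test over all genes are printed for them once, beside the share of all genes called, and nothing is read from them. All 9 genes passed the filters on low counts in each fit, but pgp-7 passed them only through its WT libraries.

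The genotypes were ced-3(n717), a mutant of the caspase CED-3, pmk-1(km25), a mutant of the p38 MAP kinase PMK-1, and wild type N2 (WT). The labels name no further allele, transgene or agent in any group. Arrested first-stage larvae were obtained by leaving eggs of bleached adults unfed in M9 for 24 h, and all groups then ate OP50 bacteria for 18 h at 20 °C. The end point was set by WT, of which over 90% had reached the third larval stage (L3). The labels give L3 for all groups, and the mutants were collected after the same feeding time. Each genotype had 2 replicates, which the series calls independent and biological without saying that they were separate cultures, so p-values measure the spread between these samples. For each replicate there was 1 library of total mRNA and 1 of ribosome-protected fragments (RPF, pieces of mRNA shielded by a ribosome), which made 12 libraries.

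P-glycoproteins are ABC transporters of the cell membrane that use the energy of ATP to move lipid-soluble compounds out of the cell. The best known member in humans is MDR1 (ABCB1), which exports many drugs. In C. elegans the family is large, many of its genes are active in the intestine, and several protect worms from toxins and metals. CED-3 executes programmed cell death, and PMK-1 acts in the innate immune response to intestinal pathogens.

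The genes differ in their place in the genome (WBcel235). The 4 genes pgp-6, pgp-7, pgp-8 and pgp-5, lay head to tail in that order on the minus strand of chromosome X, from 10854216 to 10877425, within 23.21 kb. The gap was 963 bases between pgp-6 and pgp-7 and 924 bases between pgp-7 and pgp-8, and only 3 bases separated pgp-8 from pgp-5. A second pair, pgp-3 (chromosome X, 11352156 to 11357094, plus strand) and pgp-4 (chromosome X, 11357816 to 11364050, plus strand), was 721 bases apart. The other members stood alone: pgp-1 on chromosome IV (12591704 to 12599169, minus strand), pgp-2 on chromosome I (5886613 to 5895973, plus strand) and pgp-9 on chromosome V (17755892 to 17764751, plus strand). The 4 array genes spanned 10871201 to 10877425 (pgp-6), 10865347 to 10870237 (pgp-7), 10859301 to 10864422 (pgp-8) and 10854216 to 10859297 (pgp-5). All 9 are protein coding, with 3.459 to 4.489 kb of annotated exon in 11 to 18 exon blocks, and pgp-5 and pgp-6 have 18 blocks each. Counts were per gene and covered the annotated exons, and annotated genes that overlap a member held 0 or 1 count in all libraries together. How reads that match several related genes were counted is not given in the sources used here, so a split of reads between these relatives is uncertain.

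The libraries held 15471380 to 17150137 counts in mRNA and 6708805 to 10115985 counts in RPF. In one library 3 counts corresponded to 0.177 to 0.203 CPM (reads of a gene per fixed total of reads, after TMM scaling) in mRNA and to 0.301 to 0.404 CPM in RPF. The ced-3 gene had 5.43 and 6.42 CPM of mRNA in ced-3 worms, 2.57 and 2.30 CPM in pmk-1 worms, and 5.02 and 2.29 CPM in WT. The pmk-1 gene had 37.9 and 41.0 CPM of mRNA in ced-3 worms, 35.5 and 35.3 CPM in pmk-1 worms, and 37.1 and 35.5 CPM in WT. Its RPF level was 25.04 and 25.4 CPM in pmk-1 worms, below 42.6 and 48.5 CPM in ced-3 worms and 47.2 and 52.3 CPM in WT. A count over the whole gene does not single out the stretch that an allele changes. Of the intestine list, 11 of 12 markers were found and none was at 0 in all mRNA libraries. In mRNA the 11 summed to 4997 and 4172 CPM in ced-3, 5378 and 5061 CPM in pmk-1, and 5559 and 5976 CPM in WT. In RPF they summed to 5796 and 4858 CPM in ced-3, 8077 and 7959 CPM in pmk-1, and 10075 and 9029 CPM in WT. For ced-3 against WT in RPF, 7 of the 11 had a negative and 4 a positive log2 fold. The 8 epidermis and moulting markers summed to 419 and 815 CPM of mRNA in ced-3, 311 and 116 CPM in pmk-1, and 64.3 and 59.0 CPM in WT. The libraries of ced-3 replicate 2 and pmk-1 replicate 1 had the higher moulting sum of their genotypes. The sums were not carried by the same genes. In ced-3, rol-6 made up most of the sum (219 and 451 CPM), while in pmk-1 it was lower in replicate 1 (15.6 and 25.8 CPM). In pmk-1 the higher sum came mainly from dpy-7 (147 and 33.5 CPM) and mlt-8 (93.8 and 34.1 CPM).

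The P-glycoprotein that stood out was pgp-6. Its mRNA level was 12.03 and 10.6 CPM in ced-3, 38.3 and 72.3 CPM in pmk-1, and 390.4 and 387 CPM in WT. Its RPF level was 5.19 and 3.57 CPM in ced-3, 32.5 and 67.2 CPM in pmk-1, and 322 and 315 CPM in WT. In both assays the 3 genotypes formed separate ranges, lowest in ced-3, intermediate in pmk-1 and highest in WT. The ced-3 libraries still held 33 to 204 counts of the gene, so its transcript and its footprints were low but measurable. The log2 fold in mRNA was -5.10 ± 0.35 (SE) for ced-3 against WT and -2.81 ± 0.31 for pmk-1 against WT. In RPF it was -6.19 ± 0.45 for ced-3 against WT and -2.67 ± 0.37 for pmk-1 against WT. These libraries are of whole worms, in which fewer cells of a type and less RNA per cell cannot be told apart.

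The array's far member, pgp-5, was low in the same libraries. This gene is known to protect worms from bacterial infection and heavy metals, and its induction was reported to need the TIR-1 and p38 MAP kinase cascade. Its mRNA level was 23.1 and 12.3 CPM in ced-3, 7.63 and 25.7 CPM in pmk-1, and 193 and 187 CPM in WT. In RPF it had 26.5 and 9.64 CPM in ced-3, 10.7 and 35.2 CPM in pmk-1, and 191 and 206 CPM in WT. Both mutants lay below WT without overlap, and the mutants overlapped each other. The replicates of each mutant differed far more than those of WT. The log2 fold in mRNA was -3.42 ± 0.62 (SE) for ced-3 against WT and -3.51 ± 0.63 for pmk-1 against WT. In RPF it was -3.47 ± 0.71 for ced-3 against WT and -3.11 ± 0.70 for pmk-1 against WT.

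**Figure D1:**
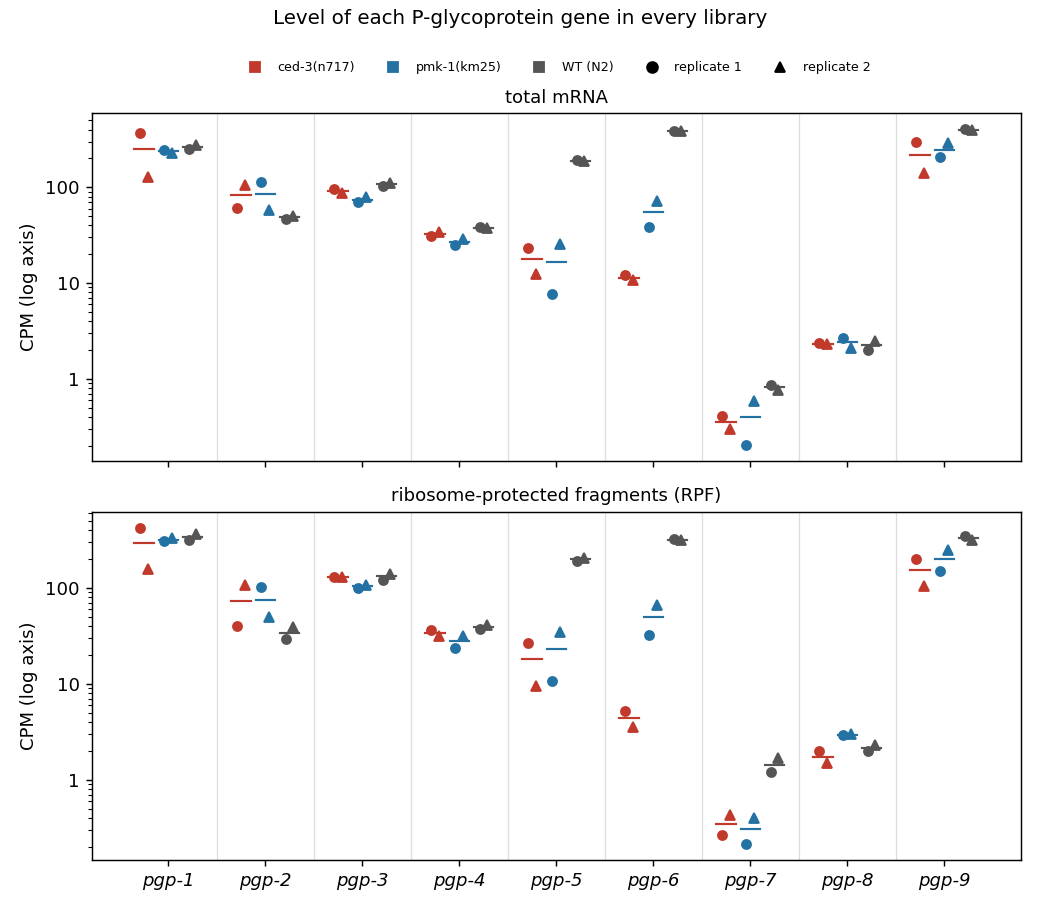
Level of each of the 9 genes in every library, in CPM on a log axis, with mRNA in the upper panel and RPF in the lower one; circles are replicate 1, triangles replicate 2, and short lines the mean of the 2 libraries, with ced-3 to the left, pmk-1 in the middle and WT to the right for each gene. The points for pgp-6 run from 10.6 to 390.4 CPM in mRNA in 3 separate ranges, those for pgp-5 are low in both mutants, and pgp-7 lies below 1 CPM in all 6 mRNA libraries.

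Between these 2 genes, pgp-7 and pgp-8 had low levels in every genotype. The mRNA level of pgp-7 was 0.413 and 0.297 CPM in ced-3, 0.203 and 0.589 CPM in pmk-1, and 0.868 and 0.764 CPM in WT. Its footprints stood at 0.266 and 0.433 CPM in ced-3, 0.217 and 0.402 CPM in pmk-1, and 1.21 and 1.69 CPM in WT. In each assay all 4 mutant libraries of pgp-7 lay below both WT libraries. The gene passed the filters on low counts through WT alone, so this order and the folds below are only a description. The fitted mRNA log2 fold of pgp-7 was -1.18 ± 0.56 (SE) for ced-3 against WT and -0.999 ± 0.56 for pmk-1 against WT. In RPF it was -1.997 ± 0.58 for ced-3 against WT and -2.18 ± 0.58 for pmk-1 against WT. These values rest on 2 to 16 counts per library, with the mutants near the level of 3 counts, so the folds are imprecise. The mRNA level of pgp-8 was 2.36 and 2.32 CPM in ced-3, 2.70 and 2.12 CPM in pmk-1, and 1.98 and 2.48 CPM in WT. In RPF it had 2.00 and 1.52 CPM in ced-3, 2.93 and 3.01 CPM in pmk-1, and 2.02 and 2.33 CPM in WT. On 14 to 40 counts per library, pgp-8 had overlapping mRNA ranges in the 3 genotypes, while in RPF pmk-1 lay above and ced-3 below both WT libraries. Its mRNA log2 fold was 0.07 ± 0.27 for ced-3 against WT and 0.11 ± 0.27 for pmk-1 against WT. In RPF it was -0.32 ± 0.35 for ced-3 against WT and 0.44 ± 0.33 for pmk-1 against WT. Along the array the folds of pgp-8, whose last base lies 3 bases before pgp-5 begins, were thus the ones nearest to 0.

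Both outer genes were low in the mutants, but not in the same proportion. Per kb of exon, the mRNA level of pgp-6 was 0.520 and 0.865 times that of pgp-5 in ced-3. This ratio was 5.02 and 2.82 in pmk-1, against 2.03 and 2.07 in WT. In RPF it was 0.196 and 0.371 in ced-3, 3.03 and 1.91 in pmk-1, and 1.68 and 1.53 in WT. The order of the pair was thus pgp-5 above pgp-6 in both ced-3 replicates and pgp-6 above pgp-5 in the pmk-1 and WT replicates, in both assays. These ratios share the values that chose pgp-6 and have no test.

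**Figure D2:**
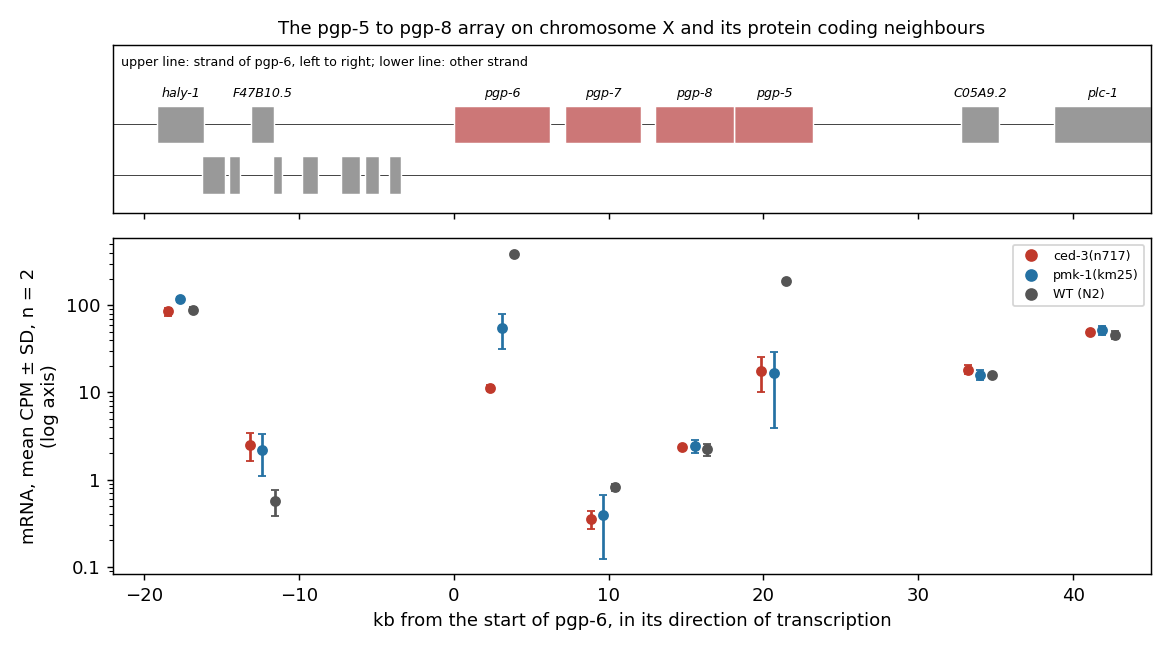
Map of the pgp-6, pgp-7, pgp-8 and pgp-5 array in its direction of transcription, with the distance from the start of pgp-6 in kb, above the mRNA level of each array gene and of 4 neighbours (mean CPM ± SD of 2 libraries, log axis); the drawing of plc-1 is cut at the right edge. Between pgp-6 and pgp-5, which are low in ced-3 and pmk-1, lie pgp-7 and pgp-8 at low levels in all 3 genotypes, and plc-1, C05A9.2 and haly-1 on either side have similar levels in the 3 genotypes.

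The genes around the array did not share the pattern. Within 20 kb of it the annotation places 25 genes including the array, 15 of them protein coding, and 4 protein-coding neighbours reached a mean of 1 CPM in mRNA. Of these, the nearest downstream, C05A9.2, averaged 18.3 ± 2.11 CPM of mRNA in ced-3, 15.9 ± 2.03 CPM in pmk-1 and 15.8 ± 0.675 CPM in WT (SD, n = 2). Further on, plc-1, a phospholipase C, averaged 49.3 ± 2.67 CPM in ced-3, 51.6 ± 6.13 CPM in pmk-1 and 45.8 ± 4.58 CPM in WT (SD, n = 2). On the upstream side, haly-1, a histidine ammonia-lyase, averaged 84.8 ± 9.11 CPM in ced-3, 116.6 ± 6.71 CPM in pmk-1 and 89.4 ± 6.15 CPM in WT (SD, n = 2). The fourth neighbour, F47B10.5, was higher in the mutants than in WT, at 2.51 ± 0.865 CPM in ced-3, 2.19 ± 1.10 CPM in pmk-1 and 0.567 ± 0.189 CPM in WT (SD, n = 2). None of the 4 passed edgeR's test in mRNA or RPF for a mutant against WT, with a smallest adjusted p of 0.0926 for F47B10.5 in ced-3 mRNA.

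The members outside the array had smaller differences. For pgp-9, a relative of transporters linked to ivermectin in parasitic nematodes, the mRNA level was 298 and 141 CPM in ced-3, 206 and 288 CPM in pmk-1, and 404 and 394 CPM in WT. Its footprints stood at 202 and 105 CPM in ced-3, 151 and 251 CPM in pmk-1, and 352 and 319 CPM in WT. All mutant libraries lay below both WT libraries in each assay. The mRNA log2 fold of pgp-9 was -0.86 ± 0.37 for ced-3 against WT and -0.69 ± 0.37 for pmk-1 against WT.

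The gene pgp-2, which acts in the lipid-storing lysosome-related granules of the gut, had the opposite sign. Its mRNA level was 60.5 and 106 CPM in ced-3, 114.6 and 57.6 CPM in pmk-1, and 47.1 and 50.2 CPM in WT. Its RPF level was 40.2 and 108 CPM in ced-3, 102 and 49.9 CPM in pmk-1, and 29.2 and 39.2 CPM in WT. Every mutant library was above both WT libraries, and ced-3 replicate 2 and pmk-1 replicate 1 were the highest. The mRNA log2 fold was 0.78 ± 0.40 for ced-3 against WT and 0.82 ± 0.40 for pmk-1 against WT.

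For pgp-1, known from heavy-metal and drug resistance of worms, the ced-3 replicates disagreed. Its mRNA level was 372 and 128 CPM in ced-3, 248 and 229 CPM in pmk-1, and 253 and 274 CPM in WT. In RPF it had 424 and 159.7 CPM in ced-3, 306 and 331 CPM in pmk-1, and 319.7 and 362 CPM in WT. One ced-3 replicate lay above and the other below all libraries of the other genotypes in both assays. Accordingly the mRNA log2 fold of ced-3 against WT was -0.08 ± 0.47 with both replicates, 0.50 without replicate 2 and -1.05 without replicate 1. The library low in pgp-1 and pgp-9 and high in pgp-2 within ced-3, replicate 2, was the one with the higher moulting-marker sum of 815 CPM. In pmk-1, replicate 1 with its sum of 311 CPM had the lower pgp-9, pgp-6 and pgp-5 and the higher pgp-2. It did not have the lower pgp-1 mRNA, at 248 CPM against 229 CPM in replicate 2. The part of these markers in the levels was not tested.

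The neighbouring pair on chromosome X, pgp-3 and pgp-4, had smaller log2 folds against WT than pgp-9 and pgp-2. For pgp-3, which protects worms from plant alkaloids and bacterial toxins, the mRNA level was 95.4 and 88.1 CPM in ced-3, 69.4 and 79.6 CPM in pmk-1, and 103 and 111 CPM in WT. Its RPF level was 129.5 and 130.1 CPM in ced-3, 99.9 and 108 CPM in pmk-1, and 123 and 141 CPM in WT. For pgp-4 the mRNA level was 30.7 and 34.3 CPM in ced-3, 25.1 and 29.1 CPM in pmk-1, and 38.4 and 37.2 CPM in WT. Its footprints stood at 36.7 and 31.96 CPM in ced-3, 24.0 and 31.75 CPM in pmk-1, and 37.1 and 41.4 CPM in WT. For both genes, each pmk-1 library lay below all ced-3 and WT libraries in both assays. Against WT, the mRNA log2 fold of pgp-3 was -0.22 ± 0.12 for ced-3 and -0.52 ± 0.12 for pmk-1. The mRNA log2 fold of pgp-4 was -0.22 ± 0.13 in ced-3 and -0.48 ± 0.13 in pmk-1.

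**Figure D3:**
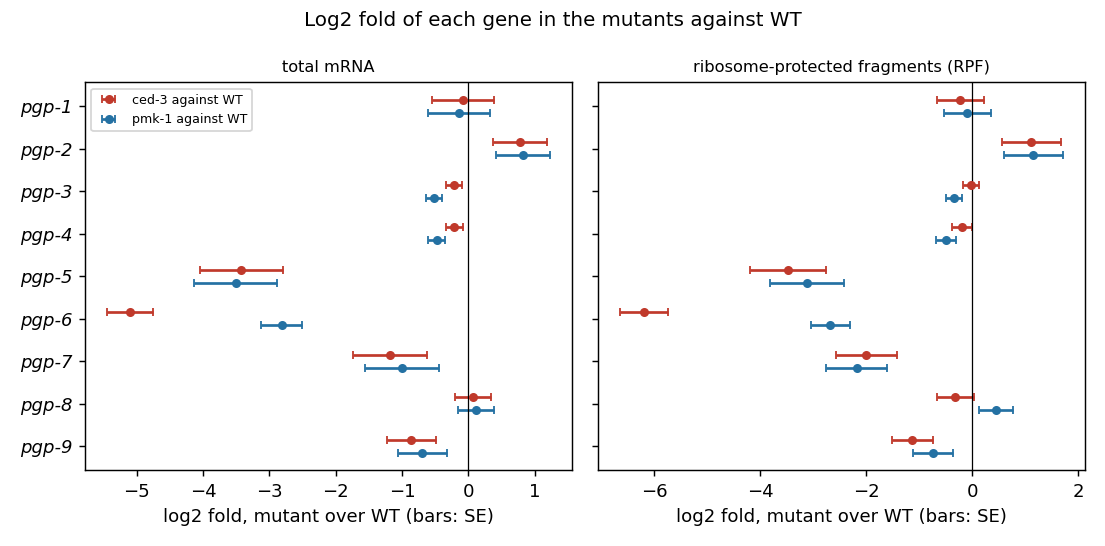
Log2 fold of each gene in ced-3 and in pmk-1 against WT, with mRNA to the left and RPF to the right; points are edgeR estimates from 2 libraries per group and bars are ± 1 SE. Points of pgp-7 rest on 2 to 16 counts per library; pgp-6 reaches -5.10 (mRNA) and -6.19 (RPF) in ced-3 and the mRNA points of pgp-5 lie at -3.42 for ced-3 and -3.51 for pmk-1.

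Across all genes, edgeR's quasi-likelihood test with Benjamini-Hochberg adjustment called 1.77% of 13536 genes in mRNA for ced-3 against WT and 0.421% for pmk-1 against WT. One member, pgp-6, was past the threshold of 0.05 in each. In RPF the shares of 12633 genes were 0.0554% for ced-3 and 0.182% for pmk-1. There pgp-6 was past the threshold for ced-3, and 0 members were for pmk-1 (4 at an unadjusted p under 0.05). DESeq2 called 2 members, pgp-5 and pgp-6, in all 4 of these comparisons. In mRNA it called 9.88% of all genes for ced-3 and 2.79% for pmk-1, and in RPF 10.4% for ced-3 and 2.22% for pmk-1. The choice of the genes rests on these comparisons, so the counts carry no weight of their own. Both mutants were set against the same WT libraries.

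The low levels of pgp-5 and pgp-6 went with another make-up of the group in the mutants. In WT mRNA, the order of levels per kb of exon was pgp-9 (99.99 CPM per kb), pgp-6 (97.4), pgp-1 (64.4), pgp-5 (47.6), pgp-3 (27.5), pgp-2 (10.8), pgp-4 (9.17), pgp-8 (0.564) and pgp-7 (0.236), with no overlap between the library ranges of neighbours. In ced-3 mRNA, pgp-6 (2.84 CPM per kb) and pgp-5 (4.44) came after pgp-1 (61.1), pgp-9 (55.1), pgp-3 (23.5), pgp-2 (18.6) and pgp-4 (7.89), ahead only of pgp-8 and pgp-7. There pgp-1 overlapped pgp-9, and pgp-3 overlapped pgp-2. In pmk-1 mRNA, pgp-6 stood after pgp-2 and pgp-3 at 13.9 CPM per kb, overlapping pgp-3 (19.1), and pgp-5 stood at 4.17, overlapping pgp-4 (6.57).

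In mRNA the 9 genes together summed to 220.5 and 128 CPM per kb in ced-3, 174 and 193 in pmk-1, and 356 and 359 in WT. Of this sum pgp-5 and pgp-6 made up 3.995% and 4.50% in ced-3, 6.61% and 12.7% in pmk-1, and 41.0% and 40.1% in WT. Without these 2 genes the sum was 212 and 122 CPM per kb in ced-3, 162 and 169 in pmk-1, and 210.1 and 215 in WT. The RPF share of the 2 genes was 3.71% and 2.47% in ced-3, 6.08% and 11.8% in pmk-1, and 37.5% and 36.8% in WT. Both mutants thus had a summed level below WT in every library, while the 7 other genes summed to about the WT level in ced-3 replicate 1. The sums and shares of the 9 genes, like the orders above, hold the values that chose pgp-6 and have no test.

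**Figure D4:**
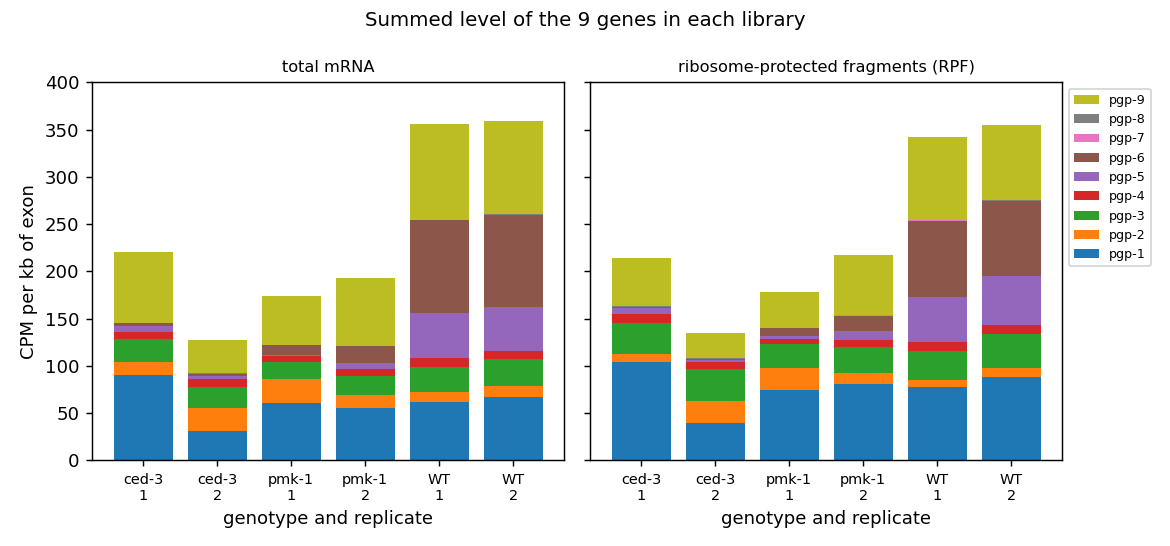
Summed level of the 9 genes in each library in CPM per kb of exon, stacked by gene, for mRNA and RPF, with ced-3 and pmk-1 left of WT and 1 bar per library. The bars of pgp-5 and pgp-6 make up 41.0% and 40.1% of the 2 WT mRNA bars and 3.995% to 12.7% of the 4 mutant ones.

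Whether the mutants differ from each other is a comparison that the choice of the genes did not use. In mRNA, pgp-6 was lower in ced-3 than in pmk-1 by a log2 fold of -2.29 ± 0.31 (SE), with an adjusted p of 0.0287 in edgeR's quasi-likelihood test over all genes. In RPF the log2 fold of pgp-6 was -3.51 ± 0.41, with an adjusted p of 0.0295 in the same test. Both ced-3 libraries lay below both pmk-1 libraries in each assay. It was the 1 member of 9 called in each assay, where 9.21% of all genes were called in mRNA and 8.61% in RPF, so the share of members called was close to the background. A fit of these 2 genotypes alone gave adjusted p of 0.0908 in mRNA and 0.104 in RPF, and it called 0 genes in all. Without ced-3 replicate 2 the adjusted p was 0.0973 in mRNA and 0.0548 in RPF, and without pmk-1 replicate 1 it was 0.0550 in RPF. A setting added after seeing the data left out both ced-3 replicate 2 and pmk-1 replicate 1, which had the higher moulting sums. The log2 fold of pgp-6 was then -2.59 in mRNA and -3.70 in RPF. That setting leaves 1 library in each mutant, assumed to vary like the WT libraries, so no p-value is given for it.

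The mutants did not differ past the threshold in pgp-5. Its log2 fold for ced-3 against pmk-1 was 0.08 ± 0.59 in mRNA (adjusted p = 0.939) and -0.36 ± 0.67 in RPF (adjusted p = 0.760) in edgeR's test. With errors of this size a difference in either direction could have been missed. The other 8 members, including pgp-5 and the thinly counted pgp-7, had log2 folds of -0.18 to 0.30 in mRNA with adjusted p of 0.168 or more, and of -0.76 to 0.32 in RPF with adjusted p of 0.188 or more. At the far ends of these ranges, pgp-3 had 0.30 ± 0.12 in mRNA and pgp-8 had -0.76 ± 0.33 in RPF.

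The footprints of pgp-6 were scarce in ced-3 even for its low mRNA. The ratio of RPF CPM to mRNA CPM in the same replicate was 0.431 and 0.336 in ced-3 larvae, 0.849 and 0.930 in pmk-1 larvae, and 0.824 and 0.814 in WT. Each assay was scaled on its own, so the ratio is relative to the other genes of the libraries. Both ced-3 values lay below the 4 others. In the fit of all 12 libraries, the log2 fold of RPF against mRNA for pgp-6 was -1.53 ± 0.42 in ced-3, with an adjusted p of 0.0215 in edgeR's test. It was -0.36 ± 0.36 in pmk-1 (adjusted p = 0.484) and -0.50 ± 0.36 in WT (adjusted p = 0.331). The gene pgp-6 was the 1 member called in ced-3, where 35.9% of all genes were called. In pmk-1 and WT edgeR called 0 members (0 at an unadjusted p under 0.05 and 0 with DESeq2), where 34.3% and 33.2% of genes were called. DESeq2 called 2 members in ced-3, beside 35.3% of all genes, with 34.2% of genes called in pmk-1 and 33.3% in WT.

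The mRNA and RPF libraries of a replicate deviated together from their group means, so the fit was also made with worm samples paired. The labels do not say that the 2 libraries of a replicate number came from the same worms, so the paired results rest on that assumption. Paired, the log2 fold of pgp-6 was -1.54 ± 0.16 in ced-3, with an adjusted p of 7.38e-07 in edgeR's test. It was -0.38 ± 0.11 in pmk-1 (adjusted p = 0.00723) and -0.50 ± 0.10 in WT (adjusted p = 0.000606). In the paired fit 4 of 9 members were called in ced-3 larvae, 4 in pmk-1 larvae and 3 in WT larvae, beside 57.5%, 54.4% and 52.4% of all genes. The ced-3 call without pairing was lost with no filter on low counts (adjusted p = 0.0743) and when either ced-3 replicate was left out (adjusted p = 0.140 and 0.222).

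The other members called in the paired fit were pgp-9, pgp-2 and pgp-3. For pgp-9 the paired log2 fold of RPF against mRNA was -0.65 ± 0.11 in ced-3 larvae, -0.54 ± 0.11 in pmk-1 larvae and -0.46 ± 0.11 in WT larvae, with adjusted p of 0.000136, 0.000706 and 0.00216. For pgp-2 it was -0.41 ± 0.13 in ced-3 larvae, -0.40 ± 0.13 in pmk-1 larvae and -0.73 ± 0.14 in WT larvae, with adjusted p of 0.0133, 0.0149 and 0.000411. In all 3 genotypes these genes had fewer footprints for their mRNA than the libraries as a whole. For pgp-3 the sign was the opposite, at 0.35 ± 0.10 in ced-3 (adjusted p = 0.00583) and 0.27 ± 0.10 in pmk-1 (adjusted p = 0.0282), with 0.09 ± 0.10 in WT (adjusted p = 0.478).

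**Figure D5:**
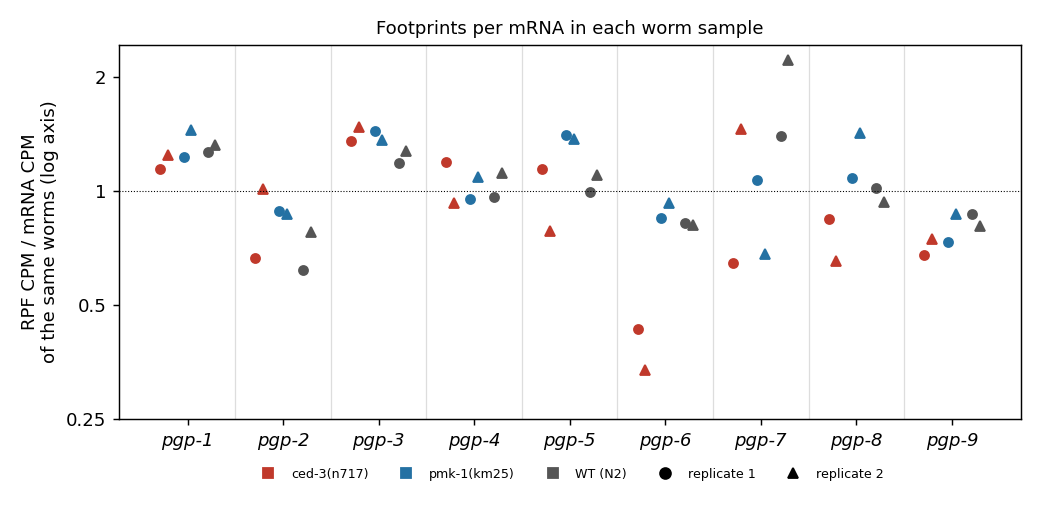
Ratio of RPF CPM to mRNA CPM for each gene, with libraries paired by replicate number, on a log axis, with ced-3 to the left, pmk-1 in the middle and WT to the right for each gene, and the dotted line at a ratio of 1. The ced-3 points for pgp-6 lie at 0.431 and 0.336, below the 4 other points of that gene at 0.814 to 0.930; the points for pgp-7 are widely spread and rest on 2 to 16 counts per library.

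Whether the change in RPF exceeded that in mRNA between genotypes (translation efficiency, TE) was tested as the interaction of genotype and assay. For pgp-6 the TE log2 fold was -1.03 ± 0.55 for ced-3 against WT and -1.17 ± 0.55 for ced-3 against pmk-1, each with an adjusted p of 1.00 in edgeR's test. For pmk-1 against WT it was 0.14 ± 0.51, also with an adjusted p of 1.00. Paired by worm sample, pgp-6 had -1.03 ± 0.19 for ced-3 against WT (adjusted p = 0.102), -1.15 ± 0.19 for ced-3 against pmk-1 (adjusted p = 0.0543) and 0.12 ± 0.15 for pmk-1 against WT (adjusted p = 1.00). The difference in footprints per mRNA of pgp-6 between ced-3 and the other genotypes therefore did not pass the adjusted threshold in either fit. A lean in this direction was seen in the intestine markers too, but not in the other ABC transporters as a list. Of the 11 intestine markers, 8 had a negative and 3 a positive TE log2 fold for ced-3 against WT. Their median was -0.19, beside 0.06 for all genes, and edgeR called 0 of them. The other ABC transporters of the list had 21 positive and 20 negative values, with a median of 0.00. Within that list, pgp-10 to pgp-15 had 6 positive and 0 negative values, with a median of 0.16. Of the 9 members, 4 were positive and 5 negative. TE called 0 members in edgeR in all 3 comparisons, 0 of them at an unadjusted p under 0.05, and 0 in DESeq2. Over all genes edgeR called 0% in each TE comparison. DESeq2 called 0.0073% for ced-3 against WT, 0.0365% for pmk-1 against WT and 0% for ced-3 against pmk-1. The paired fit called 0 members. At an unadjusted p under 0.05 it had 1 member for ced-3 against WT (pgp-6), 1 for pmk-1 against WT (pgp-5) and 2 for ced-3 against pmk-1 (pgp-5 and pgp-6). Over all genes the paired fit had 679, 460 and 796 of 13698 genes at an unadjusted p under 0.05 in these comparisons. By adjusted p it called 0.0219%, 0.0146% and 0.0292% of genes.

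The genes whose profile was most like that of pgp-6 were sought among 9575 genes with a mean of at least 5 CPM in mRNA. Likeness was the root mean square difference of log2 CPM over the 12 libraries, each gene centred within an assay, where a flat profile scored 2.33. The closest was ugt-31 (1.04), then ugt-26 (1.15), both UDP-glucuronosyltransferase genes by name, followed by pgp-5 (1.24), C07A9.12 (1.34) and F54B8.4 (1.49). With the mRNA libraries alone, 4 of these 5 stayed among the first 5, and Y58A7A.5 took the place of F54B8.4. Pearson's r with pgp-6 over the 12 libraries was 0.990 for ugt-31, 0.986 for ugt-26, 0.851 for pgp-5, 0.857 for C07A9.12 and 0.875 for F54B8.4. The 12 libraries come in pairs by replicate number and fall into genotypes, so these r are a description.

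The mRNA level of ugt-26 was 37.5 and 31.4 CPM in ced-3, 52.0 and 76.7 CPM in pmk-1, and 272 and 215 CPM in WT. That of ugt-31 was 2.65 and 3.39 CPM in ced-3, 6.28 and 11.4 CPM in pmk-1, and 26.6 and 21.3 CPM in WT. Both had the order of pgp-6, with ced-3 lowest and pmk-1 between, over a narrower range. In contrast, C07A9.12 had 0.295 and 0.178 CPM in ced-3, 8.65 and 8.48 CPM in pmk-1, and 9.67 and 9.04 CPM in WT, and so was low in ced-3 alone.

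Other ABC transporters were read from a list of 54 names, of which 52 were matched in the table, 43 were tested in mRNA and 41 in RPF. For ced-3 against WT in mRNA 1 of 43 fell and 0 rose in edgeR's test, a share of 2.33% beside 1.77% of all genes. It was haf-7, with 27.5 and 28.2 CPM in ced-3 against 66.7 and 50.75 CPM in WT, a log2 fold of -1.08 ± 0.16 (adjusted p = 0.0453). For ced-3 against WT in RPF, and for pmk-1 against WT in either assay, edgeR called 0. At an unadjusted p under 0.05 edgeR had 17 of 43 in ced-3 mRNA and 18 of 41 in ced-3 RPF. Over all genes it had 3183 of 13536 and 3000 of 12633 there. In pmk-1 it had 7 in mRNA and 4 in RPF, beside 1287 and 1097 of all genes. DESeq2 called 8 listed transporters in ced-3 mRNA and 8 in ced-3 RPF, beside 9.88% and 10.4% of all genes. In pmk-1 it called 0 in each assay, beside 2.79% and 2.22% of all genes. The median mRNA log2 fold of the list was -0.10 for ced-3 against WT and 0.01 for pmk-1 against WT, beside 0.00 for all genes tested in each. In RPF the median was -0.27 for ced-3 against WT and 0.10 for pmk-1 against WT, beside 0.01 for all genes tested in each. The choice of pgp-6 used its folds against WT, so the folds of the list were not ranked against those of the members.

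Between the mutants, 2 listed transporters were higher and 3 lower in ced-3 than in pmk-1 in mRNA, and 0 were higher and 6 lower in RPF. That is 11.6% of the 43 tested in mRNA, beside 9.21% of all genes, and 14.6% of the 41 tested in RPF, beside 8.61% of all genes. Both shares differ from the background by only a few genes. The lower ones included mrp-4, at 67.8 and 41.8 CPM of mRNA in ced-3 against 146 and 123 CPM in pmk-1 (log2 fold -1.29 ± 0.25, adjusted p = 0.0385). Also lower was the heme exporter mrp-5, with an mRNA log2 fold of -0.56 ± 0.12 (adjusted p = 0.0446), and abcf-1, an ABC protein without membrane domains, with -0.54 ± 0.11 (adjusted p = 0.0393). The higher ones included wht-2, with an mRNA log2 fold of 1.11 ± 0.25 (adjusted p = 0.0478). In RPF the lower ones were led by mrp-4 (-1.45 ± 0.27, adjusted p = 0.0370), pmp-2 (-0.84 ± 0.17, adjusted p = 0.0390) and pmp-1 (-0.84 ± 0.18, adjusted p = 0.0429), the last 2 named as peroxisomal membrane proteins. These p-values are edgeR's with adjustment over all genes.

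For RPF against mRNA, 2 listed transporters were higher and 12 lower in ced-3, 1 higher and 9 lower in pmk-1, and 1 higher and 9 lower in WT. The share called was 34.1% in ced-3 larvae, 24.4% in pmk-1 larvae and 24.4% in WT larvae, each below the 35.9%, 34.3% and 33.2% of all genes. The mitochondrial transporter abtm-1 was higher, with 0.49 ± 0.12 in ced-3 larvae, 0.52 ± 0.12 in pmk-1 larvae and 0.37 ± 0.12 in WT larvae. The P-glycoprotein pgp-11 was lower, with -1.08 ± 0.28 in ced-3 larvae, -1.11 ± 0.27 in pmk-1 larvae and -1.13 ± 0.29 in WT larvae. The values of abtm-1 and of pgp-11 were close to each other in the 3 genotypes. The listed abcf-2 was also lower, with -1.94 ± 0.37 in ced-3 larvae, -1.16 ± 0.36 in pmk-1 larvae and -1.35 ± 0.36 in WT larvae. As with pgp-6, its estimate was lowest in ced-3. In the TE comparisons between genotypes edgeR called 0 of the listed transporters.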

How the data were processed

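The authors deposited 1 table of raw counts per gene, which are whole numbers that were not normalized, per the file headers, for 6 mRNA and 6 RPF libraries. The submitters' processing notes name Bowtie2, STAR, HTSeq and the build WBcel235. Their roles, the use of strand and the treatment of reads with several matches are not given in the sources used here. Of 46778 gene identifiers, 46603 matched the Ensembl release 115 annotation of WBcel235, which gave coordinates and exon lengths.

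Counts were tested with edgeR 4.0.16 in R 4.3.3 (TMM, filterByExpr at its defaults of 10 counts per library and 15 in total, robust glmQLFit, glmQLFTest, Benjamini-Hochberg over all genes, threshold 0.05). The 6 mRNA libraries formed 1 fit (13536 genes), the 6 RPF libraries another (12633 genes), and all 12 a fit of their own (13698 genes) for TE and RPF against mRNA. SE is the log2 fold divided by the square root of F. CPM used TMM factors, and levels between genes were divided by kb of exon. DESeq2 1.42.0 was an alternative. The main edgeR fits were tried on simulated counts with 200 changed genes and 1 fixed spread, for ced-3 against WT in mRNA, RPF and TE. The other comparisons, DESeq2 and the paired fit were not simulated.

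Worm samples were paired by replicate number, because a replicate's mRNA and RPF deviated from the group means in the same genes (r across genes of 0.69 for ced-3, 0.74 for pmk-1 and 0.20 for WT). The 9 genes, the other lists and the markers were chosen with earlier results of these data known. Named genes were the 9; called ABC transporters of the list that average 5 CPM or more, up to 3 per direction; protein-coding neighbours within 20 kb at a mean of at least 1 CPM; the 5 genes most like pgp-6; and ced-3 and pmk-1. Levels of 3 counts cover counting error only.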

Additional observations from a re-analysis of the deposited data

How the results depend on the processing

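Every alternative kept the sign of pgp-6 in the comparisons tested. For ced-3 against pmk-1 its log2 fold ran from -2.68 to -1.76 in mRNA, past the threshold in 9 of 11 alternatives (adjusted p from 1.57e-09 to 0.0973), and from -3.94 to -2.88 in RPF, past it in 8 of 11 (7.16e-13 to 0.104). RPF against mRNA in ced-3 ran from -1.73 to -1.35, past it in 5 of 8 (7.38e-07 to 0.222). TE of pgp-6 passed in 0 of 10 alternatives for each comparison. Signs turned for ced-3 against pmk-1 in 6 of 9 members in mRNA and 5 in RPF. In mRNA, pgp-1 had -0.048 with the replicate block, -0.90 to 0.65 with single libraries left out and 0.70 without both ced-3 replicate 2 and pmk-1 replicate 1 (added after seeing the data). There pgp-5 had -0.54 to 1.21 and -0.15 in the last 2 of these settings, pgp-8 -0.21 to 0.14 and 0.15, pgp-2 -0.50 to 0.53 and 0.069, and pgp-9 -0.81 to 0.28 and 0.052, while pgp-7 had -0.72 to 0.78 with single libraries left out. In RPF, pgp-1 had -1.002 to 0.41 with single libraries left out and 0.35 without both, pgp-7 had -0.22 to 0.695 and -0.57, and with single libraries left out pgp-5 had -1.26 to 0.77, pgp-2 -0.92 to 0.57 and pgp-9 -0.94 to 0.046. Total counts in place of TMM moved levels by up to 9.05%.

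Counts of genes called moved more. In mRNA, DESeq2 called 1337 (ced-3 against WT), 377 (pmk-1 against WT) and 2079 (ced-3 against pmk-1) genes, and in RPF 1314, 281 and 1916. No filter gave 827 and 221 against WT in mRNA, and 1012, 212 and 1713 in RPF. Without the robust option ced-3 against WT gave 403 in mRNA and 327 in RPF. The compared groups alone gave 0 for ced-3 against pmk-1 in both assays, and 198 (ced-3) and 47 (pmk-1) against WT in RPF. Leaving out single libraries gave 0 to 1479, 2 to 388 and 64 to 1821 in mRNA, and 0 to 1249, 0 to 205 and 0 to 1548 in RPF. Without both ced-3 replicate 2 and pmk-1 replicate 1, ced-3 and pmk-1 against WT gave 1372 and 348 in mRNA, and 1264 and 241 in RPF. For TE, DESeq2 called 1 (ced-3 against WT) and 5 (pmk-1 against WT), no filter 2 (pmk-1 against WT), both doubted libraries left out 8, 1 and 1 (ced-3 against pmk-1), and single worm samples left out 0, 0 to 1 and 0 to 1. The causes were not tested.

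The replicate numbers across genotypes did not pair the samples (correlations of -0.105 to 0.108). As a replicate block they gave 0 (ced-3 against WT), 27 (pmk-1 against WT) and 564 (ced-3 against pmk-1) calls in mRNA, and 0, 0 and 496 in RPF; crossed pmk-1 numbers gave 9 for pmk-1 against WT in RPF. Pairing worm samples gave 3 (ced-3 against WT), 2 (pmk-1 against WT) and 4 (ced-3 against pmk-1) calls for TE, and for RPF against mRNA 7878 in ced-3 larvae, 7449 in pmk-1 larvae and 7177 in WT larvae. Leaving out worm samples gave 2908 to 2984, 2012 to 2078 and 1532 to 1656 there, and leaving out both doubted libraries gave 3633, 3423 and 5611. Depth limits pgp-7 and pgp-8, at 2 to 40 counts per library.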

Other observations

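The 6 remaining P-glycoprotein genes of the list, pgp-10 to pgp-15, were not called by edgeR between any genotypes in mRNA or RPF. In each comparison 1 to 3 of them had an unadjusted p under 0.05 in edgeR's test. DESeq2 called 1, for ced-3 against pmk-1 in RPF. The annotation gives pgp-15 as a pseudogene, and it had 0 to 11 RPF counts per library. The pharyngeal gene pgp-14 was the most abundant in CPM, with 805 and 745 CPM of mRNA in ced-3, 252 and 611 CPM in pmk-1, and 830.1 and 639.97 CPM in WT. The gene pgp-10 had 154 and 107 CPM in ced-3, 67.1 and 135 CPM in pmk-1, and 180.02 and 158 CPM in WT. In both genes the lowest library was pmk-1 replicate 1. The excretory canal gene pgp-12 had 18.2 and 20.8 CPM in ced-3, 21.7 and 18.1 CPM in pmk-1, and 22.5 and 25.8 CPM in WT. In RPF, pgp-13 had 2.13 and 2.38 CPM in ced-3, against 5.31 and 5.22 CPM in pmk-1 and 3.50 and 4.44 CPM in WT, a log2 fold of -1.21 ± 0.29 for ced-3 against pmk-1 that missed the threshold (edgeR, adjusted p = 0.0538).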
